A study of Mus musculus with 4 samples.

Results

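The nuclei described here are glutamatergic neurons of the mouse hippocampus chosen for a shared set of 7 transcripts: Calcrl, Htr2c, Plcxd3, Lrp2, Col6a1, Piezo2 and Myof. A nucleus was taken when its droplet barcode held at least 5000 unique molecular identifiers (UMIs, each standing for 1 captured RNA molecule), at least 3 of those 7 genes had 2 or more UMIs, the vesicular glutamate transporter gene Slc17a7 had at least 1, and the dentate granule gene Prox1 and the summed inhibitory genes Gad1 and Gad2 had at most 1. The rule took 768 of 32572 barcodes with at least 5000 UMIs. They are called Calcrl Htr2c nuclei below.

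The study profiled RNA of single nuclei from dissected hippocampi of adult mice in 4 droplet libraries made with a 10x Genomics Chromium kit. Control mice (2 libraries) were Kat6a-f/f, with both copies of Kat6a between Cre target sites, and Kat6a-cKO mice (2 libraries) had NEX-cre together with those alleles. The Cre recombinase is expressed from the Neurod6 locus, which is active in forebrain excitatory neurons, so other cell types of the tissue keep the gene. Control mice lack the Cre allele, so the deletion and the presence of that allele cannot be told apart. The labels give the genotype and a replicate number and do not state the age in weeks, the sex, or whether a library is 1 animal or a pool, so the p-values measure only the spread between these libraries.

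CA3 pyramidal neurons receive the mossy fibres of the dentate gyrus and send the Schaffer collaterals to CA1. The narrow CA2 field lies between CA3 and CA1 and is marked by genes such as Rgs14 and Amigo2. Hippocampal fields also differ along the axis from dorsal to ventral, and CA3 neurons near its ventral end are known for receptors and adhesion genes that dorsal CA3 neurons lack. KAT6A is a histone acetyltransferase, and the series' title places its effect on RSPO2 and Wnt signalling in CA3.

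The 7 genes that set the choice have different roles. CALCRL is a receptor for the peptides CGRP and adrenomedullin, which it binds only together with a RAMP protein, and Calcrl lies on the minus strand at chr2:84330626-84425411. HTR2C is a serotonin receptor coupled to the Gq protein, and Htr2c lies on the plus strand at chrX:146962513-147197277, over small RNA genes that share its intronic reads. LRP2, or megalin, is a large endocytic receptor, and Lrp2 lies on the minus strand at chr2:69424340-69586065. Col6a1 encodes the alpha-1 chain of collagen VI, Piezo2 a channel opened by mechanical force, Myof the ferlin myoferlin, which acts in membrane fusion and repair, and Plcxd3 a protein with a phospholipase C X domain. Positions are those of GENCODE M21 on GRCm38.

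The libraries held 171323466 to 186897245 counts in all, and 7911 to 8442 barcodes each reached 5000 UMIs. Control 1 and 2 gave 122 and 205 Calcrl Htr2c nuclei, Kat6a-cKO 1 and 2 gave 226 and 215. Their summed counts came to 3509910 in Control 1, the smallest sum, so values from that library carry the largest counting error. The nuclei were deep, with median UMI counts of 29045 and 25543 in Control against 23480.5 and 24260 in Kat6a-cKO, all above the 13924 to 14666 of all barcodes with at least 5000 UMIs. A depth above that of the other barcodes is partly set by the rule, since 2 UMIs of 3 genes are reached more easily in a deep nucleus. No Calcrl Htr2c barcode was shared between libraries, while 15 to 20 of the barcodes with at least 5000 UMIs were shared by each pair of libraries. Scrublet called 20 of the 768 nuclei doublets.

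For comparison, other CA3 nuclei were those that passed the same limits on UMIs, Slc17a7, Prox1, Gad1 and Gad2, held at most 1 of the 7 rule genes, at least 3 of 8 CA3 marker genes, and at most 1 marker each of CA1, CA2 and mossy cells, all at 2 UMIs. They numbered 4783, between 1026 and 1322 per library. Their median UMI counts were 18500 to 19956.5 per library. The rule did not ask for CA3 markers in the Calcrl Htr2c nuclei, and 760 of the 768 held at least 3 of the 8. The share of all barcodes that did so was not counted, and a deep nucleus reaches 2 UMIs of a gene more easily. The count of 760 alone therefore does not show a CA3 identity.

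Levels are given as counts per 1000000 (CPM) of the counts summed over the nuclei of a set in a library. They measure nuclear RNA and are not scaled for gene length, so they are compared between sets and libraries and not between genes. Calcrl stood at 154 and 188 CPM in Control 1 and 2 and at 184 and 185 CPM in Kat6a-cKO 1 and 2, against 10.1 to 13.3 CPM in other CA3. Htr2c stood at 399, 327, 468 and 320 CPM in the same order, against 32.7 to 38.8. Lrp2 stood at 126, 151, 107 and 138 CPM, against 0.6999 to 2.07 in other CA3. In every library each of the 7 genes was higher in the chosen nuclei, which the rule itself sets, so no test is given.

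**Figure D1:**
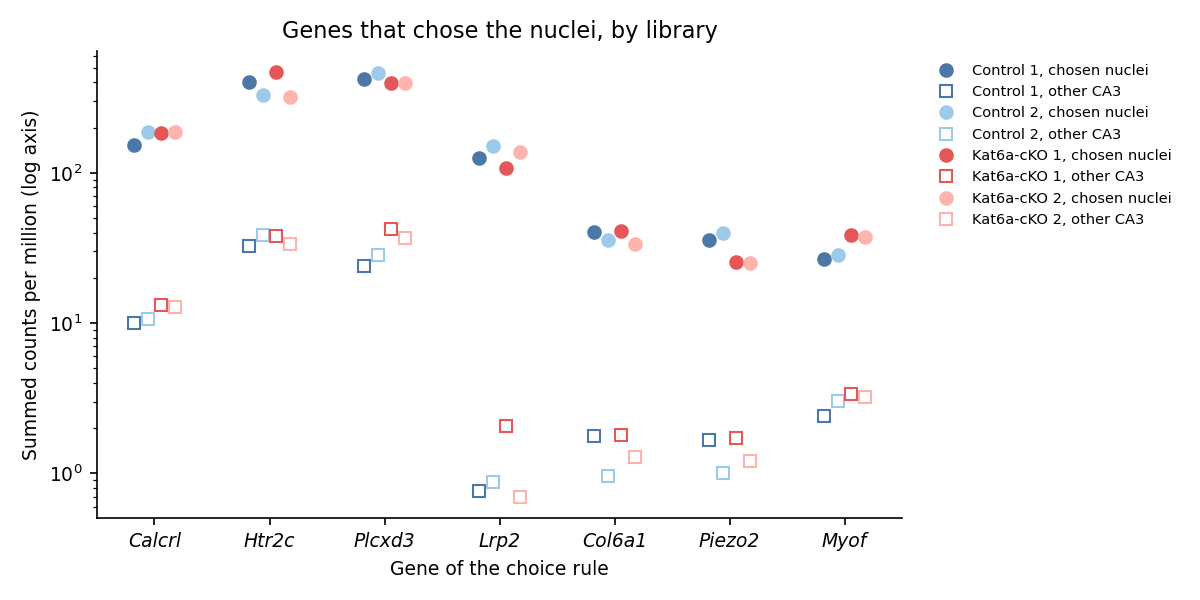
Summed CPM (log axis) of the 7 rule genes in each library, with filled circles for the Calcrl Htr2c nuclei and open squares for other CA3. The circles lie above the squares for every gene because these genes chose the nuclei, and the smallest level among the circles is that of Piezo2 in Kat6a-cKO 2 at 25.2 CPM.

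The rule genes were not found together in every nucleus. Plcxd3 had at least 2 UMIs in 745 of the 768 nuclei (97.0%), Calcrl in 616 (80.2%), Htr2c in 551 (71.7%) and Lrp2 in 428 (55.7%). Col6a1 did so in 220 (28.6%), Myof in 175 (22.8%) and Piezo2 in 148 (19.3%). In other CA3, which the same counts chose, at most 0.682% of nuclei per library had 2 UMIs of Col6a1, 0.779% of Myof and 0.292% of Piezo2. In the free RNA of barcodes with 10 to 100 UMIs, Myof stood at 44.6 to 63.4 CPM, above its 26.8 to 38.5 CPM in the chosen nuclei in every library, and its part in the counts of Myof was not tested. The other 6 rule genes were lower in the free RNA than in the chosen nuclei in every library. Exactly 3 rule genes were present in 419 nuclei, 4 in 185, 5 in 105, 6 in 52 and all 7 in 7. Nuclei with 3 genes were the deeper ones, with a median of 27020 UMIs against 23040 for those with 5, and the part of depth in the number of rule genes was not tested.

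Just outside the threshold stood 1211 nuclei with exactly 2 rule genes. Their summed Calcrl level was 25.1 CPM, against 133 CPM in nuclei with exactly 3 and 246 CPM in nuclei with 4 or more. Their Htr2c level, 384 CPM, was above the 233 CPM of nuclei with exactly 3 and below the 578 CPM of nuclei with 4 or more. Nuclei with 2 rule genes also carried Tshz2, a transcription factor gene of subicular and cortical neurons, at 613 CPM. With exactly 3 rule genes it was at 50.8 CPM (1.63 to 100.2 over the libraries), and with 4 or more at 12.3 CPM (1.94 to 34.8), so these low levels differed widely between libraries. The levels on the 2 sides of the threshold are a description, since the counts of these genes placed the nuclei.

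The rule genes were also read in pairs. Of the 428 nuclei with Lrp2, 54.4% also had Htr2c (42.2 to 61.8% over the libraries), whereas 93.5% of the 340 nuclei without Lrp2 had it. Htr2c went with Col6a1, which was present in 37.4% of the 551 nuclei with Htr2c and in 6.45% of the 217 without, and this order held in all 4 libraries. Piezo2 followed Htr2c in the same way (24.7% against 5.53%), as did Myof (29.0% against 6.91%), each in all 4 libraries. Calcrl instead went with Lrp2, which 60.9% of nuclei with Calcrl and 34.9% of those without it carried. A rule that asks for 3 of 7 genes makes a nucleus that lacks one gene hold others, so these shares describe the chosen nuclei and are no test of association.

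The most frequent combination was Calcrl, Plcxd3 and Lrp2 with none of the other 4 rule genes. It held 184 nuclei, 24.0% of all, with 24 and 51 in Control against 46 and 63 in Kat6a-cKO. The next was Calcrl, Htr2c and Plcxd3, with 97 nuclei (12.6%), followed by those 3 genes with Lrp2 (63 nuclei, 8.20%). These combinations differed in a gene that the rule did not use. St18, a zinc finger transcription factor gene, had at least 2 UMIs in 13 of the 184 nuclei of the first combination (7.07%) and in 63 of the 97 nuclei of the second (64.9%). The median depth of the first combination was the higher, at 30030 against 23600 UMIs.

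The CA3 marker genes, which the rule did not use, were then read in the same nuclei, to check the class against the CA3 identity it was thought to have. Summed over the 8 CA3 markers, the level was 5403 to 5675 CPM in the Calcrl Htr2c nuclei and 5077 to 5497 CPM in other CA3. Over all barcodes with at least 5000 UMIs, which include both sets, the mean of this sum was 2290 CPM, so these genes are not confined to CA3 nuclei. Spock1, which encodes a proteoglycan, was higher, at 1658, 1665, 1721 and 1702 CPM in the 4 libraries, against 817 to 845 CPM in other CA3. Cpne4, a copine gene, was at 1181 to 1351 CPM against 800 to 909 CPM, and Grik4, a kainate receptor subunit of CA3 neurons, at 1023 to 1081 CPM against 874 to 949 CPM. Of the 8, 4 were higher and 3 lower than in other CA3 in all 4 libraries. The lower ones were Trps1, a transcriptional repressor gene, at 292 to 407 CPM against 1349 to 1610 CPM, Nectin3, an adhesion gene, at 150 to 217 CPM against 397 to 448 CPM, and Tyro3, a receptor kinase gene, with a mean of 6.23 CPM against 20.2. The other CA3 nuclei were chosen by these 8 markers and the Calcrl Htr2c nuclei were not, so the comparison on them is a description.

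The 5 CA1 markers summed to 22.9 to 27.9 CPM, below the 75.1 to 88.7 CPM of other CA3. Markers of dentate granule cells, inhibitory neurons, astrocytes and microglia summed to 71.9 to 90.6, 36.0 to 65.3, 92.3 to 116 and 6.80 to 12.5 CPM. The granule list includes Prox1 and the inhibitory list Gad1 and Gad2, which the rule held to at most 1 UMI. The choice of nuclei therefore set part of these 2 sums, and they are no check of the class. The 9 mossy cell markers summed to 61.5 to 70.1 CPM, above the 52.6 to 57.3 CPM of other CA3, a set held to at most 1 mossy marker per nucleus. Most of this sum was Ajap1, with means of 48.2 and 45.7 CPM in the Calcrl Htr2c nuclei and other CA3, and Ntf3 was higher in all 4 libraries, with means of 12.03 and 5.16 CPM. The defining mossy markers Drd2, Calb2 and Glp1r were at 0 to 2.47 CPM in every library. The oligodendrocyte list was high, at 552 to 561 CPM against 129 to 196 CPM in other CA3, most of it St18, at 480, 488, 494 and 499 CPM in the 4 libraries. Vcan and Slc39a12, listed for oligodendrocyte precursors and astrocytes, were likewise above other CA3, at 36.7 to 64.1 and 27.6 to 45.6 CPM. The mural and fibroblast list, at 7.69 to 13.8 against 1.99 to 2.70 CPM, and the choroid plexus and ependyma list, at 21.9 to 24.7 against 7.71 to 16.8 CPM, also stood above other CA3. Of the 768 nuclei, 220 held 2 or more markers of 1 of the glial, vascular or choroid plexus lists at 2 UMIs each. Between genotypes, the inhibitory list was at 36.0 to 41.6 CPM in Control libraries against 45.2 to 65.3 CPM, the mural and fibroblast list at 12.8 to 13.8 against 7.69 to 8.72 CPM, and the microglia list at 8.83 to 12.5 against 6.80 to 8.54 CPM. The mossy list was at 66.1 to 70.1 against 61.5 to 65.2 CPM, the endothelial list at 12.54 to 13.9 against 12.17 to 12.52 CPM, the choroid plexus and ependyma list at 21.9 to 22.5 against 24.5 to 24.7 CPM, and the CA3 list at 5403 to 5464 against 5588 to 5675 CPM. The sums for astrocytes, oligodendrocytes and their precursors overlapped between genotypes.

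Genes used to tell the ventral from the dorsal hippocampus did not all point to 1 side. Of 14 ventral genes, 9 reached a mean of 5 CPM in either set, 5 of these were higher than in other CA3 in all 4 libraries, one of them the rule gene Htr2c, which the choice of nuclei made high, and 2 were lower in all 4. Over all 10172 genes at that level, 2165 were higher and 3201 lower in all 4 libraries. Apart from the rule gene Htr2c, the largest fold over other CA3 among the 14 was that of Plagl1, an imprinted zinc finger gene, at 28.8, 42.7, 47.1 and 39.6 CPM against a mean of 8.67. Nr2f2, a nuclear receptor gene, had a mean of 15.02 CPM against 7.01. Gpc3, a glypican gene of the same list, was at 0.570 to 1.82 CPM against a mean of 8.05. Among 7 dorsal genes at that level, 4 were lower in all 4 libraries and 2, Prss23 and Crym, higher. Among the lower ones was the deiodinase gene Iyd at 2.50 to 5.45 CPM against a mean of 19.7. The dorsal-list protease gene Prss23 was at 11.1 to 18.4 CPM against a mean of 1.24.

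CA2 markers were present beside the CA3 markers. The 7 CA2 genes summed to 99.8 to 126 CPM, against 18.3 to 23.2 CPM in other CA3, a set held to at most 1 CA2 marker per nucleus. Of the 768 nuclei, 407 held no CA2 marker at 2 UMIs, 225 held 1 and 136 held 2 or more. At least 3 were found in 65 nuclei, 15 and 18 in Control against 14 and 18 in Kat6a-cKO. The same count of 3 was reached by 3 of 13873 nuclei of the glutamatergic gate with at most 1 rule gene, and by 39 of the 1211 with 2 rule genes. The label of a ventral CA3 type therefore does not hold for all the chosen nuclei, and they are named here by their rule genes.

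Rule genes were counted in nuclei grouped by their number of CA2 markers. Of the 65 nuclei with 3 or more, all 65 had Lrp2 and Plcxd3 and 59 had Calcrl, while 13 had Htr2c (20.0%, 95% exact binomial interval 11.1 to 31.8%), 1 had Col6a1, and 2 each had Piezo2 and Myof. The Htr2c share differed between libraries, with 7 of 15 such nuclei in Control 1 (46.7%) against 11.1 to 14.3% in the others. Of the 407 nuclei with no CA2 marker, 360 had Htr2c (88.5%, 84.9 to 91.4%), 151 had Col6a1 (37.1%, 32.4 to 42.0%) and 157 had Lrp2 (38.6%, 33.8 to 43.5%). The intervals cover counting error only. Nuclei with CA2 markers were deeper, with a median of 34220 UMIs for 3 or more markers and 22550 for none, and the part of depth in these shares was not tested. The 184 nuclei of the Calcrl, Plcxd3 and Lrp2 combination held 95 with 2 or more CA2 markers (51.6%), and the 97 of the Calcrl, Htr2c and Plcxd3 combination held 3.

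**Figure D2:**
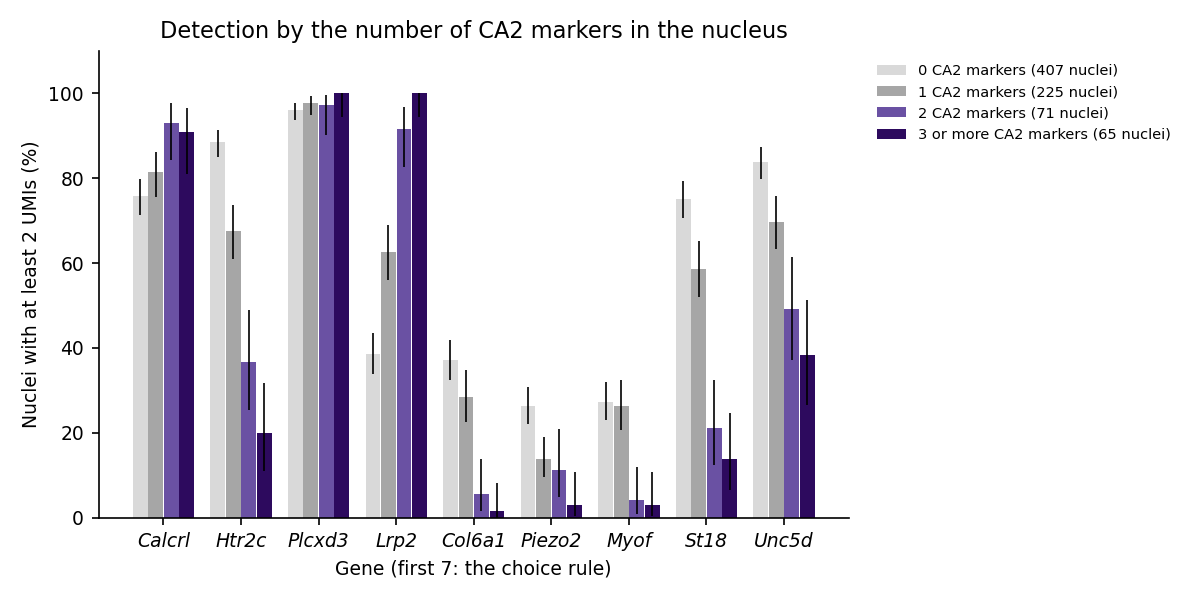
Share of Calcrl Htr2c nuclei (percent) with at least 2 UMIs of each rule gene and of St18 and Unc5d, for nuclei with 0, 1, 2 or at least 3 CA2 markers; lines are 95% exact binomial intervals. Lrp2 runs from 38.6% of nuclei with none to all 65 nuclei with at least 3, and Htr2c from 88.5% down to 20.0%. The last share is 46.7% in Control 1 and 11.1 to 14.3% in the other libraries.

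The same genes were read as summed levels. Htr2c was at 514 CPM in nuclei with no CA2 marker (446 to 567 over the libraries) and at 105 CPM in those with 2 or more (46.1 to 160). Lrp2 ran the other way, at 88.2 CPM (79.5 to 109) and 195 CPM (168 to 228). Both are rule genes, and a nucleus without Htr2c could enter only with 3 of the other 6, so their opposite order is partly set by the rule and supports nothing here. Calcrl, at 182 and 161 CPM, and Plcxd3, at 423 and 393 CPM, had overlapping ranges. Compared within libraries, Calcrl was higher with 2 or more CA2 markers in 1 library and Plcxd3 in 0, and both are rule genes too. Of genes outside the rule and the CA2 list, Tead1, a transcription factor of the Hippo pathway, was at 252 CPM without CA2 markers and 23.7 CPM with 2 or more, and St18 at 673 and 117 CPM. Unc5d, a netrin receptor gene, was at 1152 and 228 CPM, and Gabrg3, a GABA-A receptor subunit gene, at 1780 and 318 CPM. Higher with CA2 markers were the noncoding RNA gene Gm43154 (18.7 and 274 CPM), the neurotrophin gene Ntf3 (1.56 and 39.7 CPM), Acan, which encodes the perineuronal net protein aggrecan (1.46 and 23.7 CPM), and Hcrtr2, an orexin receptor gene (6.24 and 52.5 CPM). These genes were picked from the same nuclei for their distance between the 2 subsets and are given as a description.

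Against other CA3, 118 of 5918 genes at 20 CPM or more in either set were at least 2-fold higher in mean and higher in all 4 libraries (1.99%), and 143 were at least 2-fold lower (2.42%). Folds were taken after adding 5 CPM to each mean. Because the nuclei were chosen by expression, these folds describe the class and are given with no test. Beyond the rule genes, Armc4, known for its part in ciliary dynein docking, was 8.13-fold higher, with a mean of 55.6 CPM ± 9.09 (SD, n = 4 libraries) against 2.46. St18 was 6.57-fold higher, at 490 ± 7.99 CPM against 70.4, and Unc5d 6.22-fold higher, at 846 ± 105 CPM against 132. Secreted factors and matrix proteins were also in the leading 20: Angpt1, a ligand of the TIE2 receptor (6.37-fold), Tll1, a tolloid-like protease (5.30-fold), Col11a1, a collagen XI chain (4.70-fold), and Hgf, the ligand of the MET receptor (4.47-fold). Gm43154 and the adaptor gene Fyb2 were 6.53-fold and 4.60-fold higher in all the nuclei, and 3.06-fold and 3.02-fold when nuclei with 2 or more CA1, CA2 or mossy markers were left out. In nuclei with at least 4 rule genes they were 1.77-fold and 1.95-fold higher, and the other 18 of the 20 kept a 2-fold difference. The 7 rule genes are among those 18, and asking for more of them sets their folds, so they show nothing here.

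The 10 genes furthest below other CA3 had different known roles. Sema6d, a transmembrane semaphorin gene, was 8.57-fold lower, at 29.1, 20.3, 44.0 and 20.0 CPM against a mean of 281. Lingo2, an LRR cell-surface gene, was 6.24-fold lower, and Epha3, an ephrin receptor gene, 5.61-fold lower. Hs6st3, which encodes a heparan sulfate sulfotransferase, was 5.60-fold lower, and Rph3a, a gene of the vesicle protein rabphilin, 6.45-fold lower. Other CA3 held nuclei with cortical or subicular markers, 16.4 to 21.8% per library with 2 or more, against 8.37 to 11.5% of the Calcrl Htr2c nuclei. With such nuclei left out of both sets, the noncoding RNA gene Rmst went from 6.46-fold to 1.46-fold lower, Il1rapl2 from 6.58-fold to 2.52-fold and Brinp3 from 7.76-fold to 3.52-fold, while Sema6d stood at 8.99-fold and Lingo2 at 6.47-fold. All 20 leading higher genes, 7 of them rule genes that the choice made high, and 9 of the 10 lower genes kept a 2-fold difference there.

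**Figure D3:**
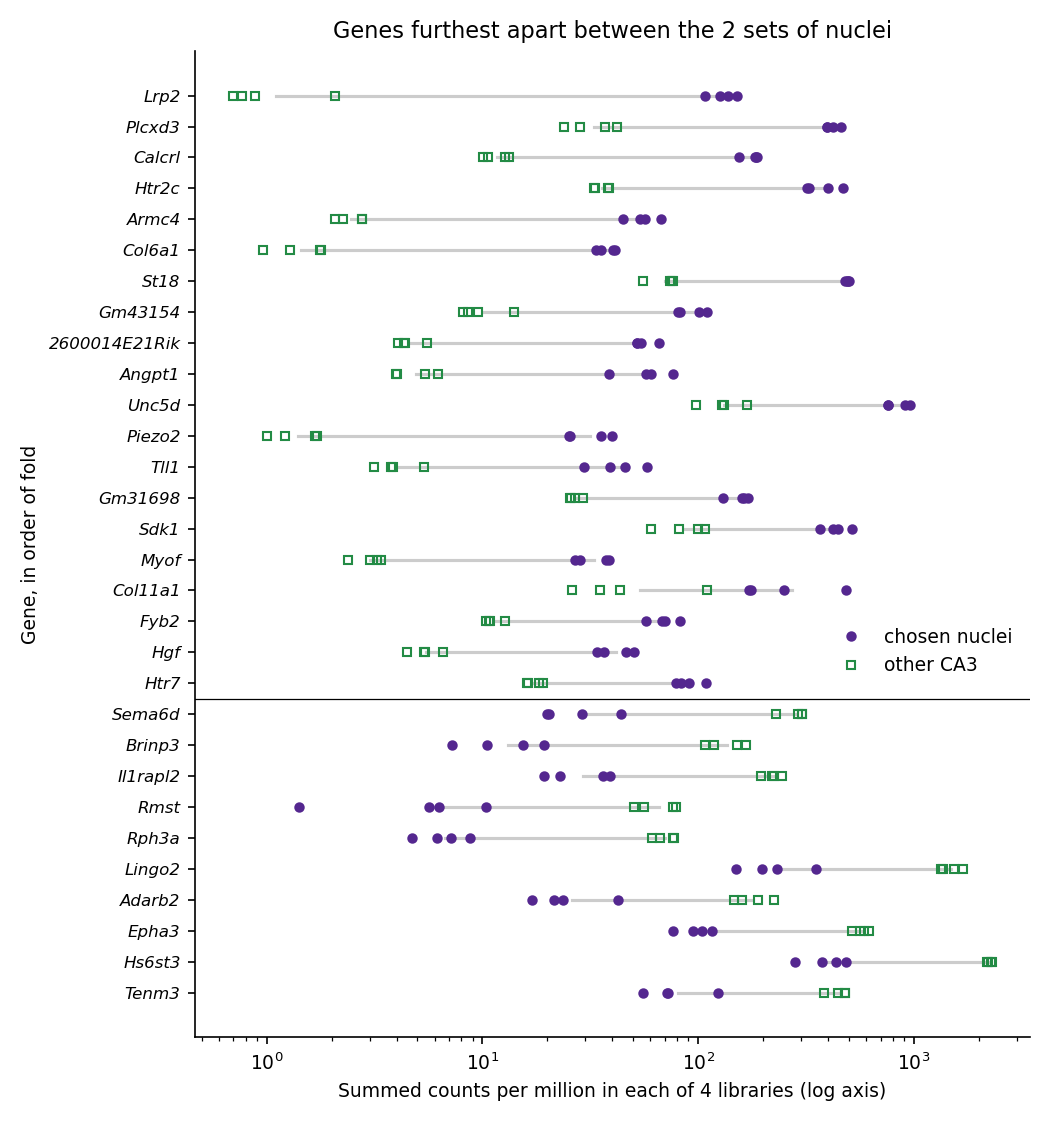
Summed CPM (log axis) in each of the 4 libraries for the 20 genes with the highest and the 10 with the lowest fold against other CA3, with filled circles for the Calcrl Htr2c nuclei and open squares for other CA3. Above the line the circles lie to the right, from Lrp2 (22.2-fold) to Htr7 (4.26-fold), and below it to the left, from Sema6d to Tenm3.

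The CGRP receptor needs a RAMP partner, and its parts were not all above other CA3. Ramp1, which makes the CGRP receptor with CALCRL, stood at 18.5, 30.9, 28.8 and 23.4 CPM in the Calcrl Htr2c nuclei, below the mean of 36.4 CPM of other CA3 in every library. Ramp2 was at 1.82 to 6.89 CPM and Ramp3 at 0.182 to 0.358 CPM. In the free RNA, Ramp1 stood at 81.4 to 84.7 CPM and Ramp2 at 73.0 to 88.5 CPM. Both were above their levels in the chosen nuclei in every library, and the part of free RNA in their counts was not tested. Calcr, the calcitonin receptor gene, had a mean of 1.36 CPM against 8.71. The peptide genes were all but absent: Calca, which encodes CGRP, was seen in 1 library, at 0.179 CPM, and Adm, which encodes adrenomedullin, in none.

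Several serotonin receptor genes other than Htr2c stood above other CA3. Htr4, a Gs-coupled receptor gene, was at 240, 234, 269 and 266 CPM, a mean of 252 ± 17.7 against 124 ± 10.3. Htr7, also Gs-coupled, was at 83.2, 78.6, 90.7 and 109 CPM, with a mean of 90.4 against 17.4. Htr2a, the other Gq-coupled receptor gene measured at this level, had a mean of 33.1 CPM against 21.9. The Gi-coupled Htr1f was lower, at 90.4 to 99.1 CPM against a mean of 160, and Htr5a was alike, with a mean of 5.20 CPM in both sets. Htr7 was at 129 CPM in nuclei with 2 or more CA2 markers and at 71.7 CPM in nuclei with none. The order of Htr2c over these subsets is partly set by the rule, so the 2 receptors are not compared on it. Thinned to 5000 UMIs per nucleus, 29.8 to 38.1% of Calcrl Htr2c nuclei had a UMI of Htr7, against 5.56 to 7.12% of other CA3, with 1 or more UMIs of Htr4 in 67.3 to 72.1% against 37.5 to 41.3%.

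Partners of the other rule genes were measured too. Collagen VI is a heterotrimer, and of its other chains Col6a2 and Col6a3 were at 2.18 to 3.58 and 0.716 to 1.42 CPM, above other CA3 in all 4 libraries (means of 0.518 and 0.245 CPM). Col6a4 was lower in 3 of 4 libraries (means of 2.17 and 2.97 CPM), Col6a5 higher in 3 of 4 (1.81 and 0.933 CPM) and Col6a6 higher in 1 of 4 (0.920 and 0.865 CPM). Piezo1, the second Piezo channel gene, had no count in the Calcrl Htr2c nuclei of any library, and of the stretch-sensitive potassium channel genes Kcnk2 had a mean of 95.3 CPM against 46.7, Kcnk4 3.86 against 8.12 and Kcnk10 47.5 against 62.2. Of the LDL receptor family, Lrp1b was at 8388, 8348, 7638 and 7725 CPM against a mean of 3289, and Lrp4, the agrin receptor gene, had a mean of 18.5 CPM against 5.60. The megalin partners Cubn and Dab2 had means of 1.013 and 0.858 CPM, and the chaperone gene Lrpap1 was lower than other CA3, with means of 18.6 and 27.6 CPM. Among adhesion and guidance genes, 46 of 53 reached 5 CPM, 13 were higher in all 4 libraries and 26 lower, beside 2165 and 3201 of all 10172 genes.

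The mineralocorticoid receptor gene Nr3c2 had a mean of 1654 CPM against 927 in other CA3, and the glucocorticoid receptor gene Nr3c1 32.4 CPM against 57.9. Of the corticoid target genes on that list, Fkbp5 was higher in all 4 libraries (204 and 122 CPM), and Sgk1 (118.7 and 172.8 CPM) and Tsc22d3 (2.04 and 3.12 CPM) were lower in all 4. Among peptide receptors, Npy2r, a receptor for neuropeptide Y, had a mean of 19.7 CPM against 7.89, and Adcyap1r1, the PACAP receptor gene, 10.6 CPM against 27.4. Of the glutamate receptor list, the kainate receptor auxiliary subunit Neto1 had a mean of 383 CPM against 711, and the AMPA receptor partner Cacng3 14.2 CPM against 61.7. Shisa6, another AMPA receptor partner, was higher, with means of 1997 and 1258 CPM. Rspo2, the R-spondin named in the series' title, stood at 81.2, 57.2, 58.0 and 46.9 CPM in Calcrl Htr2c nuclei against a mean of 79.3 in other CA3, and lower in every library. It was at 83.5 CPM in nuclei with no CA2 marker (65.8 to 115 over the libraries) and at 27.7 CPM in those with 2 or more. Thinned to 5000 UMIs per nucleus, 14.4 to 25.4% of Calcrl Htr2c nuclei had a UMI of it, against 17.5 to 26.6% of other CA3.

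The share of Calcrl Htr2c nuclei differed between the Control libraries as much as between genotypes. They were 1.48% of the barcodes with at least 5000 UMIs in Control 1 (95% exact binomial interval 1.23 to 1.76%) and 2.58% in Control 2 (2.24 to 2.95%), and 2.68% (2.34 to 3.04%) and 2.72% (2.37 to 3.10%) in Kat6a-cKO. The means were 2.03% ± 0.776 (SD, n = 2) in Control against 2.70% ± 0.0287 in Kat6a-cKO. The difference of 0.671 percentage points had p = 0.33 in an exact two-sided permutation test, the smallest p that 2 libraries against 2 allow. Without Control 1 it was 0.122 points. When every barcode was thinned to 5000 UMIs before the rule was applied, 13, 34, 17 and 25 nuclei remained and the difference was -0.0336 points. Nuclei with 2 or more CA2 markers were 23.8 and 20.5% of the Calcrl Htr2c nuclei in Control against 10.2 and 19.5% in Kat6a-cKO, groups that did not overlap (exact permutation p = 0.33).

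**Figure D4:**
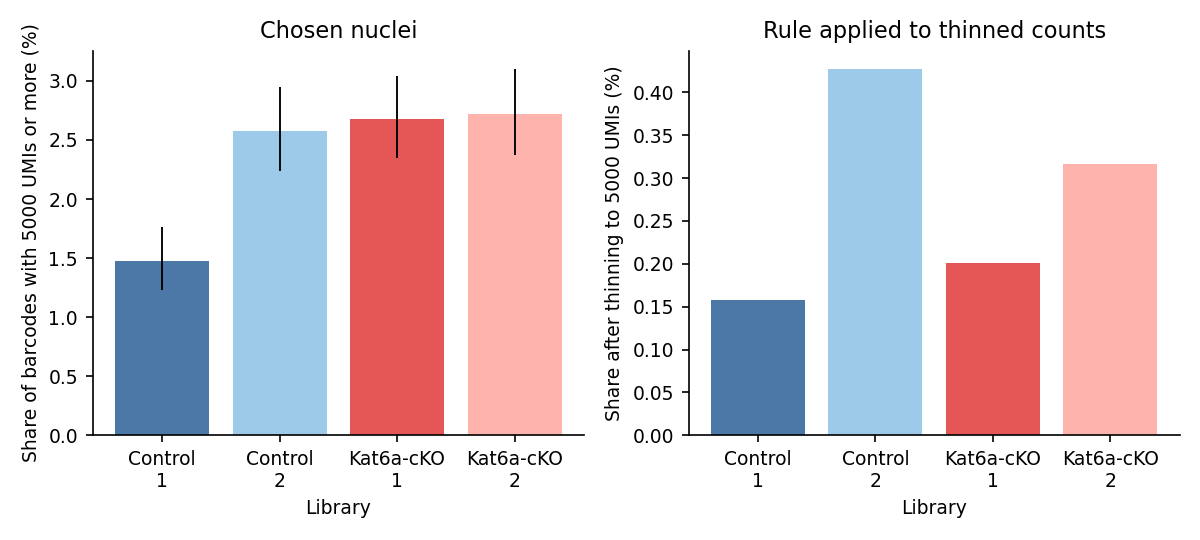
Share of barcodes with at least 5000 UMIs that are Calcrl Htr2c nuclei (percent), by library, on the counts as deposited with 95% exact binomial intervals (left) and after thinning every barcode to 5000 UMIs (right). Control 1 is lowest in both panels, at 1.48% and 0.157%, and Control 2 is the highest in the right panel at 0.427%.

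The comparison of Kat6a-cKO with Control asks which genes differ with the genotype in these nuclei. Counts were summed per library and tested with the edgeR quasi-likelihood test, with p-values adjusted over all genes by the Benjamini-Hochberg method. Of 12526 genes tested, 2 passed an adjusted p under 0.05 (0.016%), 1 of them higher and 1 lower in Kat6a-cKO. Single libraries moved this number, which was 85 without Control 1, 27 without Control 2, 10 without Kat6a-cKO 1 and 162 without Kat6a-cKO 2. At an unadjusted p under 0.05, 350 genes were higher (2.79%) and 496 lower (3.96%). The libraries of the 2 genotypes did not overlap, with Kat6a-cKO higher, for 1974 genes (15.8%) and, with Kat6a-cKO lower, for 2462 (19.7%). On simulated counts of these nuclei the procedure recovered 132 of 195 genes given a log2 change of 1 and called 4 unchanged genes. The simulation gave genes of like level the same spread between libraries, and no shift shared by the genes of a library. The real libraries need not meet this, so the recovered number does not give the power of the comparison.

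Gm3279, a long intergenic noncoding RNA gene on the plus strand at chr6:55684571-55694574, rose in Kat6a-cKO. It stood at 1.42 and 0.706 CPM in Control against 30.2 and 28.5 CPM in Kat6a-cKO, a log2 change of 4.88 ± 0.31 (SE) with an adjusted p of 6.53e-06 in edgeR. The SE of each log2 change is its absolute value over the square root of the test's F, and is no separate estimate of counting error. Gm3279 had 5 and 4 counts in Control against 169 and 157 in Kat6a-cKO. The gap between its annotation and Neurod6 is 3.31 kb, and Neurod6 is the locus that carries the NEX-cre allele. In other CA3 it was at 1.81 and 1.47 CPM in Control against 35.8 and 36.8 CPM in Kat6a-cKO, and it was the one gene of 16667 to pass there (0.006%), where 11 to 46 passed with 1 library left out. The difference between the 2 changes was 0.37 ± 0.44, with an adjusted p of 0.997 in the edgeR interaction test. The sequence entry for cre had 0 counts in both Control libraries and 11 and 10 counts in Kat6a-cKO, at least 2.73-fold higher in mean CPM than a floor of 3 counts per library.

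CT010467.1, an rRNA gene that overlaps 2 others at chr17:39846353-39848827, fell by 0.54 ± 0.08 on the log2 scale (adjusted p = 0.0494 in edgeR). It stood at 1505 and 1755 CPM in Control against 1106 and 1126 CPM in Kat6a-cKO, and the call was lost in 8 of 16 alternatives. In other CA3 it was at 1885 and 2004 CPM against 1340 and 1347 CPM, with an adjusted p of 0.0846. Ribosomal protein genes, a list chosen after its values were seen, were lower in most cases: 67 of 74 had lower values in Kat6a-cKO, 28 of them at an unadjusted p under 0.05 and none past the adjusted threshold. Over all 12526 genes tested, 6386 had lower values and 3.96% were lower at that unadjusted p. Their median log2 change was -0.396 in the Calcrl Htr2c nuclei and -0.465 in other CA3, against -0.00403 over all genes tested. In the free RNA of barcodes with 10 to 100 UMIs these 74 genes summed to a mean of 27465 CPM in Control against 23951 CPM in Kat6a-cKO, and the part of free RNA in the result was not tested.

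Kat6a itself stood at 65.2 and 66.4 CPM in Control against 62.1 and 60.5 CPM in Kat6a-cKO, a log2 change of -0.09 ± 0.12 (adjusted p = 0.948, edgeR). The counts cover the whole gene, so RNA of an allele that has lost some exons would still be counted, and this level is no check of the deletion. Neurod6 was at 49.6 and 55.8 CPM against 42.6 and 34.1 CPM, a log2 change of -0.45 ± 0.15 that did not pass (adjusted p = 0.571). Rspo2 had overlapping libraries, with a log2 change of -0.37 ± 0.17 and an adjusted p of 0.730, and in other CA3 a change of -0.60 ± 0.15 that did not pass either (adjusted p = 0.357). There it stood at 110 and 81.0 CPM in Control against 67.3 and 58.4 CPM in Kat6a-cKO, without overlap. Over 14 alternatives, some with 1 library left out, its change in other CA3 ran from -0.82 to -0.33, and 4 gave a call. The difference between the 2 Rspo2 changes was 0.20 ± 0.10 (adjusted p = 0.992).

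The next genes in order of p at a mean of 10 CPM or more did not pass the threshold, and their values are given as such. Cntnap5c, of the Caspr family of adhesion genes, was at 467 and 497 CPM in Control against 722 and 626 CPM in Kat6a-cKO (log2 0.49 ± 0.09, adjusted p = 0.141). Zbtb18, a transcriptional repressor gene, was at 84.0 and 86.7 CPM against 56.2 and 52.7 CPM (log2 -0.64 ± 0.11, adjusted p = 0.141). Mkx, a homeobox gene, was at 9.97 and 12.005 CPM against 20.9 and 25.1 CPM, and Il1rapl2 at 22.8 and 19.2 CPM against 36.3 and 39.0 CPM. None of these 4 genes had overlapping libraries, which their choice by low p makes likely and which adds no support. Among all 12526 genes tested, 15.8% did not overlap with Kat6a-cKO higher and 19.7% with it lower. Col11a1, at 172 and 176 CPM against 486 and 249 CPM, and Gm32647, at 362 and 367 CPM against 842 and 517 CPM, were highest in Kat6a-cKO 1. Fstl4 (log2 0.48 ± 0.09) and Rpl34 (log2 -1.40 ± 0.25) complete the 10 genes of lowest p at that level.

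**Figure D5:**
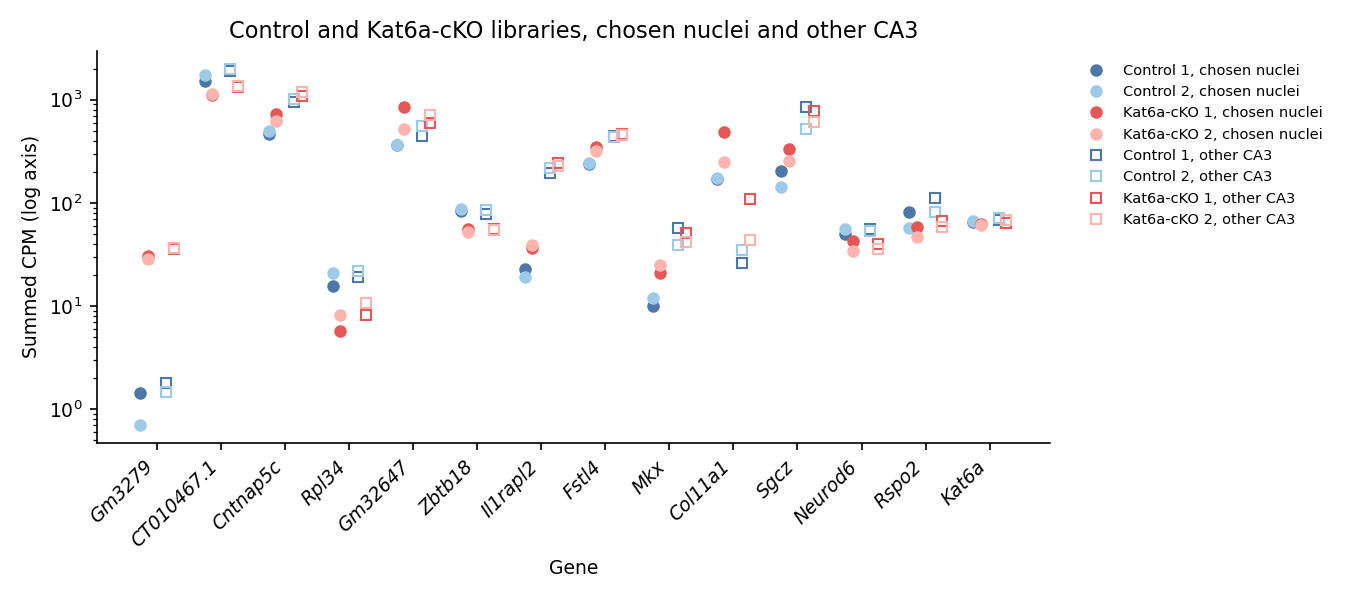
Summed CPM (log axis) in each library for the 10 genes of lowest p in the genotype comparison of Calcrl Htr2c nuclei and for Sgcz, Neurod6, Rspo2 and Kat6a, with filled circles for these nuclei and open squares for other CA3. Gm3279 stands at 0.706 and 1.42 CPM in Control against 28.5 and 30.2 CPM in Kat6a-cKO, and Kat6a at 60.5 to 66.4 CPM in all 4 libraries.

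Piezo2 and Myof, both rule genes, ran in opposite directions with libraries that did not overlap between genotypes, and Plcxd3, at 423 and 459 CPM against 396 and 395 CPM, did not overlap either. Piezo2 was at 35.6 and 39.9 CPM in Control against 25.6 and 25.2 CPM in Kat6a-cKO. Myof was at 26.8 and 28.4 CPM in Control against 38.5 and 37.2 CPM in Kat6a-cKO. Calcrl, Htr2c, Lrp2 and Col6a1 had overlapping libraries. Over all genes, libraries did not overlap for 15.8% with Kat6a-cKO higher and 19.7% with it lower. No test is given for the rule genes and nothing is read from these values, since the nuclei were chosen by their counts.

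Of 306 genes on the 15 lists drawn up for this class, with rule genes left out, 213 were tested and 0 passed in edgeR or in DESeq2 with all 4 libraries (2 to 17 passed in edgeR with 1 library left out). At an unadjusted p under 0.05 there were 31 (16 higher and 15 lower in Kat6a-cKO), or 14.6% of those tested against 6.75% of all genes. In DESeq2 there were 10 of 293 tested (8 higher and 2 lower), or 3.41% against 0.787% of all genes. The median log2 change of the list genes was -0.0025. On the axon guidance and adhesion list 6 of 47 tested genes reached that p, all higher: Unc5d, at 757 and 757 CPM in Control against 961 and 908 CPM in Kat6a-cKO, Dcc, the netrin receptor gene, at 1693 and 1615 CPM against 1988 and 1873 CPM, and Epha3, Sema3e, Tenm3 and Cdh12. Tenm3 overlapped, at 55.6 and 72.4 CPM in Control against 123 and 71.7 CPM in Kat6a-cKO. Unc5d was at 1152 CPM in nuclei with no CA2 marker and 228 CPM in those with 2 or more. The latter were 23.8 and 20.5% of the nuclei in Control against 10.2 and 19.5% in Kat6a-cKO, and their part in the change was not tested. In nuclei with at least 4 rule genes the log2 change of Epha3 was -0.0148. The list's median log2 change was 0.113, against 0.0178 in other CA3. Both list and members were chosen with earlier results known, so these counts stand as a description.

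On the serotonin receptor list, Htr7 had a log2 change of 0.32 ± 0.12 (adjusted p = 0.669, edgeR) and 4 of 6 genes had higher, non-overlapping Kat6a-cKO libraries, against 15.8% of all genes. Of the 27 Wnt pathway genes tested, Lgr5, Lgr6 and Znrf3, which encode R-spondin receptors and an E3 ligase they act on, were higher at an unadjusted p under 0.05, and Rspo2 and the ligand gene Wnt2 lower, beside 2.79% of all genes higher and 3.96% lower at that p. Znrf3 overlapped between genotypes, at 46.2 and 60.0 CPM in Control against 77.3 and 57.4 CPM in Kat6a-cKO. Lgr5 was highest in Kat6a-cKO 2, at 12.9 CPM, and at 5.30 to 7.16 CPM in the other libraries. Libraries did not overlap for 4 of the 27 with Kat6a-cKO higher and 11 with it lower, against 15.8% and 19.7% of all genes, and the list's median log2 change was -0.0407. Of the peptide genes, Npy2r was at 21.1 and 27.4 CPM in Control against 13.1 and 17.3 CPM in Kat6a-cKO (log2 -0.68 ± 0.20, adjusted p = 0.497), and Cck, the cholecystokinin gene, at 60.7 and 101.9 CPM against 46.0 and 66.5 CPM. Ramp2 and the nuclear receptor gene Nr2f2 were lower at the same unadjusted level, with log2 changes of -1.36 ± 0.41 and -1.003 ± 0.30, and Kcnk2 higher, at 0.40 ± 0.11. Nr2f2 was lowest in Kat6a-cKO 2, at 6.54 CPM, and at 13.6 to 24.5 CPM in the other libraries. The 10 tested genes of the Kat6a complex list had a median of -0.0558 and none at that p. Among marker lists of other cell types, the inhibitory-list gene Erbb4 was higher and the endothelial gene Flt1 and the mural gene Rgs5 were lower at an unadjusted p under 0.05; the sums of the inhibitory, mural, microglia, mossy, endothelial, choroid plexus and CA3 lists did not overlap between genotypes, and the part of such cells in the changes was not tested.

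The test of whether a genotype change differed between Calcrl Htr2c nuclei and other CA3 used the interaction of class and genotype with the library as a block. Of 15848 genes 2 passed (0.0126%), the rule gene Plcxd3 and Sgcz. Leaving out 1 library gave 48 genes without Control 1, 40 without Control 2, 62 without Kat6a-cKO 1 and 6 without Kat6a-cKO 2. Plcxd3 stood at 23.9 and 28.2 CPM in Control against 42.2 and 37.0 CPM in Kat6a-cKO in other CA3, and at 423, 459, 396 and 395 CPM in the chosen nuclei. Its counts placed nuclei in both sets, so its values are a description. Sgcz, which encodes zeta-sarcoglycan and lies on the minus strand at chr8:37522298-38661508, was at 205 and 142 CPM in Control against 335 and 253 CPM in Kat6a-cKO in Calcrl Htr2c nuclei, and at 843 and 524 CPM against 770 and 614 CPM in other CA3. The difference of the changes was 0.71 ± 0.08 on the log2 scale (adjusted p = 0.00856, edgeR). With nuclei that held 2 or more cortical or subicular markers left out of both sets, Sgcz was at 189, 157, 276 and 238.4 CPM in the Calcrl Htr2c nuclei of the 4 libraries. In other CA3 it was then at 136 and 122 CPM in Control against 236 and 163 CPM in Kat6a-cKO, and the difference was -0.05 (adjusted p = 0.993). Without the library as a block the difference was 0.75, with an adjusted p of 1.00.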

How the data were processed

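Raw UMI counts per barcode and gene, deposited by the authors as whole numbers for 55422 gene IDs and all barcodes, were used. Per the submitters' processing notes the build was mm10 and Seurat 4.0.1 was used in a role not stated; the aligner, annotation and counting strand are not given in the sources used here. Symbols were assigned by gene ID (55154 IDs); positions come from GENCODE M21 where ID and version matched. Without strand information, reads of overlapping genes cannot be told apart. Counts were summed over nuclei per library. The genotypes were tested with edgeR 4.0.16 (quasi-likelihood, TMM, filterByExpr, Benjamini-Hochberg adjusted p under 0.05; R 4.3.3), with DESeq2 1.42.0 as an alternative. Doublets were called by Scrublet in scanpy 1.11.5 (expected rate 0.06) and kept in the main analysis. Exact tests used scipy 1.17.1. The procedure was tested on simulated data.

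The members, marker lists and gene lists were chosen with earlier results of these data known. Genes were named by rule: those past the threshold with non-overlapping libraries and at least 10 CPM, up to 10 in each direction, otherwise also the 10 of lowest p at that level; Kat6a, the cre entry, Neurod6, Rspo2 and the rule genes always; and for the class the 20 highest and 10 lowest folds. List genes at an unadjusted p under 0.05 and genes that differed with CA2 markers were named after their values were seen. Replicates are libraries (n = 2 per genotype), not nuclei.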

Additional observations from a re-analysis of the deposited data

Results flagged for a closer look

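The genotype change of Sgcz differed between Calcrl Htr2c nuclei and other CA3 by the edgeR interaction test, with a difference of 0.71 ± 0.08 on the log2 scale (adjusted p = 0.00856). In Calcrl Htr2c nuclei alone its change was 0.77 ± 0.16 (adjusted p = 0.285) and in other CA3 0.02 ± 0.21 (adjusted p = 0.990). Over 16 alternatives the difference ran from -0.05 to 0.86 and the adjusted p from 1.97e-16 to 1.00, with 14 of 16 past the threshold. Of the other CA3 nuclei, 16.4 to 21.8% per library held 2 or more cortical or subicular markers, as did 8.37 to 11.5% of the Calcrl Htr2c nuclei. With such nuclei left out of both sets at once the difference was -0.05, and the sets were not changed one at a time.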

How the results depend on the processing

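The number of genes past the threshold was small in each comparison and moved with most choices; Gm3279 passed in Calcrl Htr2c nuclei in all 16 alternatives. In Calcrl Htr2c nuclei, where 2 genes passed (3 in DESeq2), 1 passed with DESeq2's size factors, with doublets left out, with a filter of 10 CPM, with a minimum of 8000 UMIs, and with nuclei holding glial or vascular, cortical, or CA1, CA2 or mossy markers or very deep nuclei left out; 6 passed with no filter on low counts and 12 with at least 4 rule genes. In other CA3, where 1 passed, 57 passed in DESeq2, 392 with no filter and 3 with doublets or with glial or vascular markers left out. For the difference between the sets, where 2 passed, 0 passed in edgeR without the library block (437 had an unadjusted p under 0.05), 1 with a filter of 10 CPM, 4 with cortical-marker nuclei or with very deep nuclei left out, 5 with glial or vascular markers left out, 43 with at least 4 rule genes and 82 with no filter. Leaving out 1 library each gave 10 (without Kat6a-cKO 1) to 162 (without Kat6a-cKO 2) genes in Calcrl Htr2c nuclei, 11 to 46 in other CA3 and 6 to 62 for the difference, where the lone library of a group is assumed to vary like the other group. Of the list genes, 2 to 17 passed then and 2 with at least 4 rule genes. With the replicate block, 164 genes passed in Calcrl Htr2c nuclei, 11 of them on the lists, and 46 in other CA3. No label ties equal numbers to a shared animal or day, and the deviations of same-numbered libraries correlated at 0.2235 over 7822 genes with only 2 pairs. The settings on cortical markers, very deep nuclei and CA1, CA2 or mossy markers were chosen after seeing the data.

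The share difference was -0.0336 points after thinning to 5000 UMIs and 0.122 to 1.22 points when 1 library was left out. With at least 4 rule genes the change was 0.0833 for Kat6a and -0.0148 for Epha3 in Calcrl Htr2c nuclei. The difference between the sets turned for Sgcz (-0.0477) and Rspo2 (-0.0341) without cortical-marker nuclei and for Gm3279 (-0.07) without glial or vascular markers. With at least 4 rule genes it was 0.1628 for Kat6a and -0.0787 for Neurod6, and with CA1, CA2 or mossy markers left out 0.0064 for Kat6a, -0.0505 for Neurod6 and -0.015 for Rspo2. For Kat6a it was 0.039 without very deep nuclei and -0.0894 to 0.0525 when 1 library was left out, and for Neurod6 -0.0452 to 0.1939. The cause was not tested for any of these. Over 44 genes named in Calcrl Htr2c nuclei, direction and call were as before in 615 of 686 combinations of gene and setting; 61 gained the call, 8 lost it and 2 turned in sign.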
